A study of Mus musculus with 4 samples.

Results

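Whole-genome bisulfite sequencing (WGBS) libraries of embryonic brain were compared between a Tet1 knockout (KO) and a wild-type (WT) embryo whose dams had been fed control folic acid (FA), 3 ppm in the diet. They are 2 of the 4 libraries of the series and were chosen by the genotype and diet in their labels. The other 2 libraries are a KO and a WT embryo under excess FA, 30 ppm, and took no part in the calls. They serve as a second pair, for classes of WT level and for the alternatives that need all 4 libraries. With 1 library in each group there is no replicate check and no SD, and every test below compares these libraries and not the genotypes.

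All 4 embryos were E11.5 males of the strain 129S6.cg Tet1<tm1Koh>, in which a knockout allele made in C57BL/6 (B6) mice had been backcrossed to inbred 129S6. Per the study's methods, a cassette inserted where translation of the long form begins abolishes the full-length transcript, while a short Tet1 isoform from a downstream start was still detected in KO brain. The brain was taken whole, from forebrain to hindbrain, so each level is an average over all cell types of the dissected tissue. Both diets were custom diets with the antibiotic succinyl sulfathiazole, given to the dams. In the study's list of samples for reduced representation sequencing, the KO embryo with the number of the 3 ppm library has a neural tube defect and the WT embryo is normal. Their embryo numbers start differently, which was read as different litters. The same list gives the same contrast for the 30 ppm pair, a KO embryo with the defect and a normal WT embryo whose number starts differently. Genotype, phenotype and litter therefore cannot be told apart in either pair.

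TET1 is a dioxygenase that oxidises 5-methylcytosine, the methyl mark that mammals place on CpG dinucleotides, and so opens a route back to unmethylated cytosine. Promoters rich in CpGs are mostly kept free of methylation, CpG-poor promoters are usually methylated in tissues that do not use the gene, and the flanks of unmethylated promoters are where levels change most between cell types. Bisulfite sequencing reads 5-methylcytosine and its first oxidation product, 5-hydroxymethylcytosine, as the same signal, so a level below is the sum of both.

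A promoter was taken as the 1 kb on each side of a gene's outermost annotated start, and a gene body as the gene from 1 kb inside that start to its end. Starts further inside a gene were not measured as promoters, also where they are the ones in use. Reads were summed over autosomal CpGs with at least 5 reads in both 3 ppm libraries, 17084936 CpGs, and the level is the percentage of those reads that were methylated. A promoter with at least 3 such CpGs was called higher or lower at an adjusted p under 0.05 in Fisher's exact test (two-sided, Benjamini-Hochberg over all promoters tested) together with a gap of 10 percentage points or more, called points from here on. A body needed at least 10 CpGs and a gap of 5 points or more. A read is counted at each CpG it covers, so these reads are not independent, and p-values and intervals are too small to that extent. The intervals cover counting error only.

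To show what kind of sequence gained methylation, the 200 bases of largest difference upstream of the start and outside exons are printed for 3 of the 4 promoters with the largest gain. The fourth, Trim58, had no such stretch with at least 4 CpGs. Each reads 5′ to 3′ on the gene's strand in GRCm38, with the CpGs in capitals.
Cck: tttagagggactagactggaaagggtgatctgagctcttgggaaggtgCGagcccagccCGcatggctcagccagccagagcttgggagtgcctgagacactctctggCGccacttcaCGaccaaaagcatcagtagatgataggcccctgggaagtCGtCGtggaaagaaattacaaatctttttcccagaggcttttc
Rem1: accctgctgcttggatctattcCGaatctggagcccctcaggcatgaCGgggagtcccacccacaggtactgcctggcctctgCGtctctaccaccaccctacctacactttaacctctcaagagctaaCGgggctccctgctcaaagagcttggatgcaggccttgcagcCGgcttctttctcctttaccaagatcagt
Nsg1: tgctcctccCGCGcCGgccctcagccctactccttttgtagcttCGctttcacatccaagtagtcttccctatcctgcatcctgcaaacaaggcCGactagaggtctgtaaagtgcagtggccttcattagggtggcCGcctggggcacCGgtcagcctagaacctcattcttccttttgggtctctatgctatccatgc
The Cck stretch (chr9:121496230-121496429, minus strand) lies 536 to 735 bases upstream of the start, and its 6 CpGs were methylated at 80.2% in KO (121 reads) and 18.3% in WT (71 reads). The Rem1 stretch (chr2:152625951-152626150, plus strand) lies 801 to 1000 bases upstream, and its 5 CpGs were methylated at 88.0% in KO (50 reads) and 31.4% in WT (51 reads). The Nsg1 stretch (chr5:38160175-38160374, minus strand) lies 268 to 467 bases upstream, and its 7 CpGs were methylated at 66.7% in KO (144 reads) and 10.3% in WT (68 reads). All 3 are of middling CpG density, with 5 to 7 CpGs in 200 bases, at GC contents of 53.5% to 56.5%. They were picked for their difference, so these levels describe them and are no test.

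Mean coverage of the listed autosomal CpGs was 21.2 reads in KO and 16.2 in WT, against 13.2 and 14.3 in the 30 ppm pair. Mitochondrial CpG reads, a background for incomplete conversion, were methylated at 0.927% in KO and 0.938% in WT. The mean level of the CpGs compared was 80.6% in KO and 79.7% in WT, a difference of 0.895 points. The neural markers fixed for a tissue check include Sox1, Sox2, Pax6 and Nes. Their median promoter level was 1.65% in KO and 1.35% in WT, and 0 of 11 promoters were called. Of these promoters 10 are rich in CpGs, a kind mostly kept free of methylation. Their low level therefore does not identify the tissue. Of the other markers, 1 of 10 blood, 1 of 10 endothelium, 2 of 10 mesenchyme and 0 of 8 surface epithelium promoters were called, all higher. Over all protein-coding promoters 13.2% were called higher. The promoters of the globin genes Hba-a1 (57.4% in KO, 82.5% in WT) and Hbb-bh1 (38.8% and 53.3%) lay lower in KO without passing Fisher's exact test, while 60.0% of the blood promoters had a difference above 0, with a median of 0.638 points, against 76.3% and 2.82 points over all protein-coding promoters. The share of blood cells was not measured, and its part in the results below was not tested.

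Tet1 itself did not set the libraries apart in the promoter window tested, and starts further inside the gene were not tested. Around the outermost annotated start on chromosome 10 the level was 91.5% in KO (457 reads) and 94.4% in WT (301 reads), a difference of -2.89 points (adjusted p = 0.39, Fisher's exact test). The Tet1 body was at 85.3% in KO and 82.8% in WT, and 2.47 points fall short of the 5 points required. The genotype was taken from the labels, since CpG reads do not measure the transcript.

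The promoters that differed were nearly all higher in KO. Of 49084 promoters tested, 3970 were higher (8.09%) and 152 were lower (0.31%). Of the 20183 protein-coding promoters, 2662 were higher (13.2%) and 43 were lower (0.213%), with a median level of 33.0% in KO and 25.8% in WT and a median difference of 2.82 points. Neighbouring genes share promoters, and the 2662 higher ones lie in 2576 distinct windows. The size of the count depends on how the reads are treated. With the z value of each promoter divided by its robust SD over all promoters, 1.64, the counts were 1830 higher and 10 lower. With CpGs at least 500 bp apart only, which leaves few CpGs per window, they were 32 and 2. Higher calls made up 96.3% of all calls, 99.5% and 94.1% in these counts. Around the 10-point minimum, 1152 of the higher promoters lay within 20% above it, and 1388 promoters that were higher and passed the exact test lay within 20% below it.

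**Figure D1:**
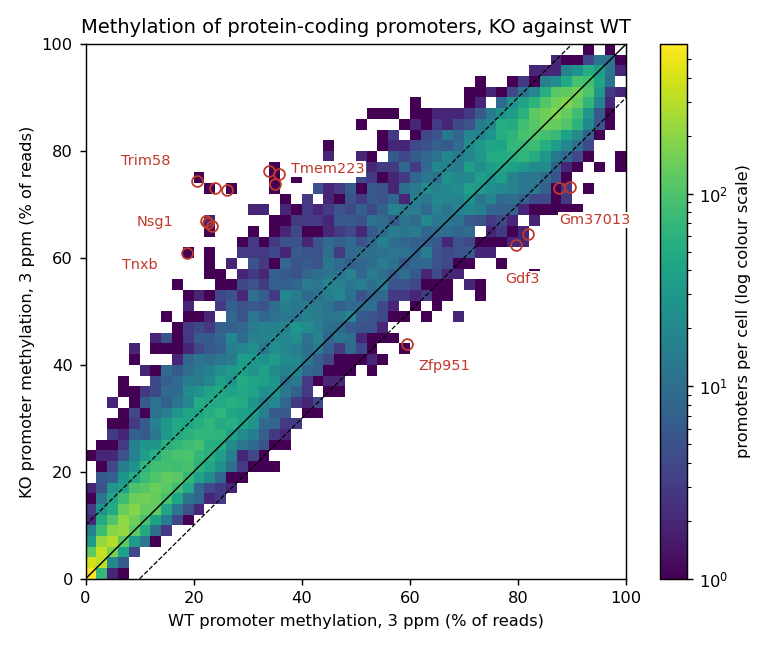
Methylation of each protein-coding promoter in the WT library (horizontal, % of reads) and the KO library (vertical, % of reads) under 3 ppm FA, as counts of promoters per cell on a log colour scale. The solid line marks equal levels, the dashed lines 10 points above and below, and circles the 15 promoters with the largest gain or loss, some of them labelled. Above the upper dashed line the promoters lie mostly at WT levels between 10% and 80%.

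The share of promoters that gained methylation differed between classes of CpG content. By the base composition of their 500-base windows, protein-coding promoters were divided into CpG-rich (CpG observed over expected above 0.75 at a GC content above 55%), CpG-poor (never above 0.48) and CpG-intermediate. Of 3772 intermediate promoters 938 were higher (24.9%), against 1275 of 10377 rich ones (12.3%) and 449 of 6034 poor ones (7.44%). The median differences were 4.53, 3.18 and 1.08 points. Intermediate promoters were thus 18.7% of those tested and 35.2% of those called higher. The 43 lower promoters held 28 CpG-poor ones.

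The share called also varied with the level of the promoter. To keep counting error of the WT library out of the split, promoters were classed by their level in the WT library of 30 ppm. The share called higher was 1.85% for promoters at 0% to 5%, 8.21% at 5% to 10%, 13.6% at 10% to 20%, 26.0% at 20% to 50%, 18.5% at 50% to 80% and 1.16% at 80% to 100%. A call needs a gain of 10 points, so a promoter near 100% cannot be called higher, and the low share at 80% to 100% is partly set by that minimum. Within the 20% to 50% class 40.3% of intermediate, 33.7% of poor and 20.1% of rich promoters were called higher. The order was not the same at every level: at 50% to 80% it was 30.5%, 12.8% and 26.0%, and at 10% to 20% it was 25.7%, 31.4% of only 35 promoters, and 10.9%.

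Other gene types gave fewer calls. Promoters of antisense RNAs were higher in 331 of 2881, of long intergenic RNAs in 7.41% of 5098 and of miRNAs in 4.70% of 1999. Processed pseudogenes (2.04% of 8431, median -0.30 points), snoRNAs (1.06% of 1323) and unprocessed pseudogenes (1.26% of 1434, median -1.04 points) had the lowest shares given here. Of the unprocessed pseudogenes 19 were lower (1.32%, against 0.31% of all promoters). Among protein-coding genes the share rose with gene length, from 10.5% of genes up to 5 kb to 16.3% of genes over 100 kb. By chromosome the share over all genes ran from 5.75% on chromosome 16 to 10.8% on chromosome 11. Chromosome 10, which carries Tet1 and with it the flanks of the targeted allele, gave 8.04%.

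**Figure D2:**
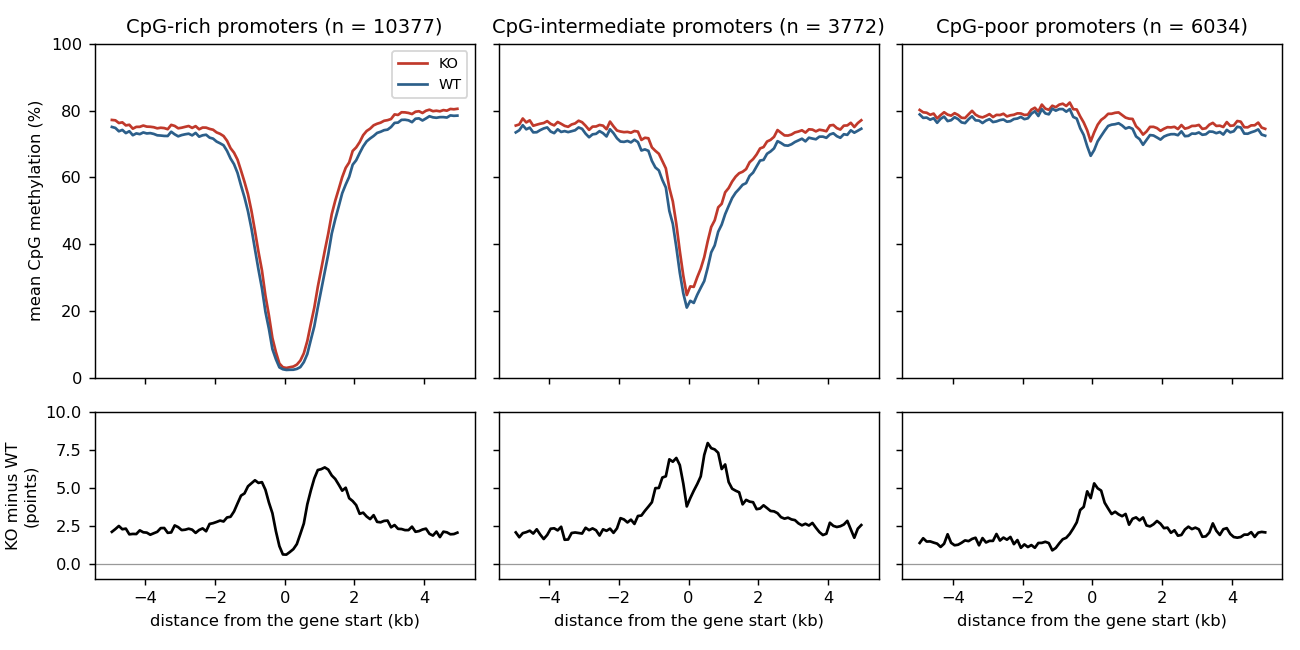
Mean CpG methylation (%) in bins of 100 bp from 5 kb upstream to 5 kb downstream of the start of protein-coding genes, for KO and WT under 3 ppm FA (upper row), and the difference KO minus WT in points (lower row), by CpG class. In CpG-rich promoters the difference is smallest at the start and largest on both flanks, and in CpG-poor promoters it is largest at the start.

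Along the gene the gain sat beside the start of CpG-rich promoters and not on it. In the first 100 bp after the start these promoters were at 2.88% in KO and 2.28% in WT, a difference of 0.594 points. It grew to 5.50 points at 800 to 900 bp upstream (44.0% against 38.5%) and to 6.35 points at 1100 to 1200 bp downstream (38.0% against 31.7%). At 4900 to 5000 bp on both sides it was 2.10 and 2.04 points. Intermediate promoters differed by 4.32 points in the first 100 bp (27.3% against 23.0%), by 6.97 points at 300 to 400 bp upstream and by 7.95 points at 500 to 600 bp downstream. In CpG-poor promoters the difference peaked at the start itself, at 5.29 points (73.5% against 68.2%). The width of the promoter window therefore bears on each class. With 500 bp on each side the median fell to 1.04 points in rich promoters and was 1.70 points in poor ones, and with 2.5 kb it was 4.11 and 0.661 points.

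The largest gains took promoters from mostly unmethylated to mostly methylated. Trim58, a ubiquitin ligase gene of the TRIM family known from red cell maturation, gained most. Its promoter (chromosome 11, 58639465 to 58641465) was at 74.4% in KO (95% Wilson interval 70.7 to 77.7, 585 reads) and 20.6% in WT (17.1 to 24.7, 441 reads), a difference of 53.7 points (48.3 to 58.6, adjusted p = 2.1e-64, Fisher's exact test). At 42 of its 43 CpGs KO exceeded WT. In the 30 ppm pair the levels were 74.0% and 29.9%. At 4 CpGs of this window both KO libraries were at 80% or more and both WT libraries at 5% or less. Without them the difference was 50.4 points. Whether these are base differences between the strains was not tested.

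Cck, which encodes the neuropeptide and gut hormone cholecystokinin, came next. Its promoter (chromosome 9, 121494694 to 121496694) was at 73.1% in KO (665 reads) and 24.0% in WT (446 reads), a difference of 49.1 points (43.6 to 54.0, adjusted p = 2.6e-56, Fisher's exact test), and 73.1% and 33.1% in the 30 ppm pair. KO exceeded WT at 38 of 38 CpGs, including the CpGs next to the start, which were at 0% in WT. Rem1, a small GTPase of the RGK family that regulates calcium channels, was at 72.7% and 26.2% (30 ppm pair 68.4% and 32.7%), with KO above WT at 28 of 29 CpGs. Nsg1, a neuronal endosome protein involved in receptor recycling, was at 66.9% and 22.4% (30 ppm pair 48.4% and 23.1%), with KO above WT at 14 of 18 CpGs and equal at the others.

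**Figure D3:**
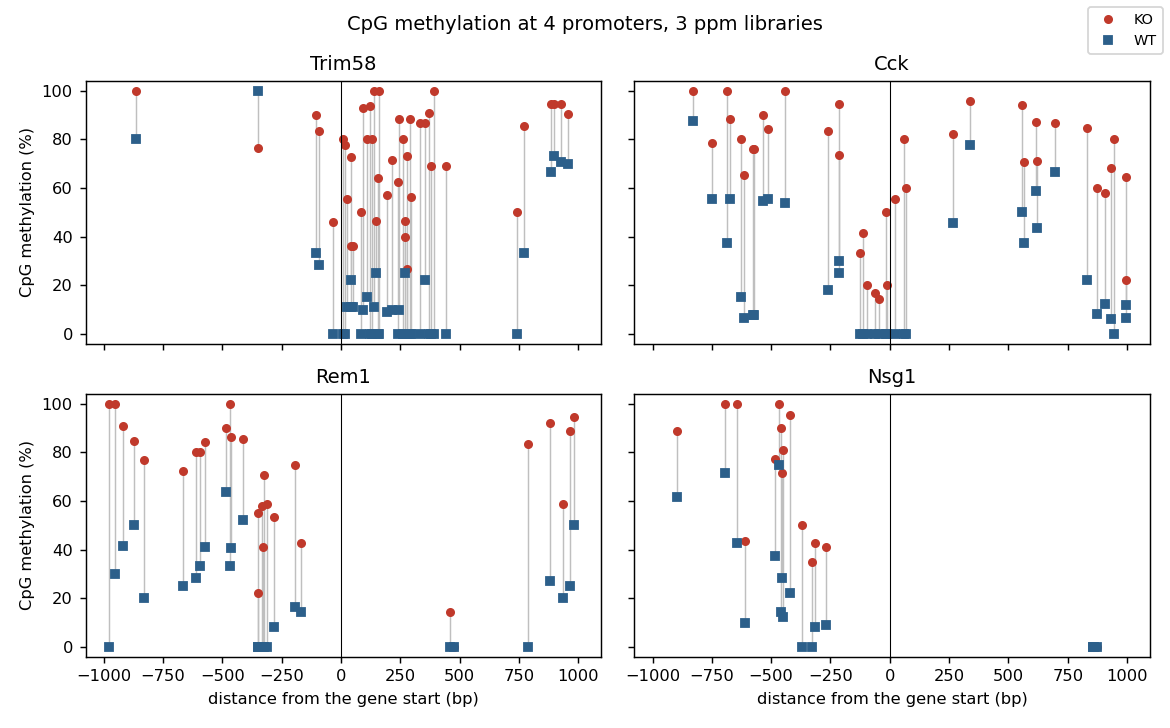
Methylation (%) of each CpG with at least 5 reads in both 3 ppm libraries against its distance from the gene start (bp, upstream negative) at the promoters of Trim58, Cck, Rem1 and Nsg1, for KO (circles) and WT (squares), with a line joining the 2 values of a CpG. KO lies above WT at 42 of 43, 38 of 38, 28 of 29 and 14 of 18 CpGs.

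The other 6 of the 10 largest gains ran from 38.8 to 43.8 points. Calhm2, a large-pore channel of the calcium homeostasis modulator family, was at 66.5% in KO and 22.6% in WT. Slc46a2, a solute carrier of the same family as the proton-coupled folate transporter, was at 76.3% and 34.0%. Tnxb, the extracellular matrix protein tenascin XB, was at 60.8% and 18.8%. Gm5294 (65.9% and 23.4%), Tmem233 (75.7% and 35.8%) and Tmem223 (73.8% and 35.0%) completed the set. In the 30 ppm pair all 10 promoters were called higher, by 14.2 (Tmem223) to 44.1 points (Trim58). Of the 10, 9 were CpG-intermediate and Nsg1 CpG-rich. With CpGs at least 500 bp apart 8 of the 10 lost the call and Rem1 and Tmem233 did not. With 2.5 kb on each side all but Cck were smaller by over 1.5 times, from 16.4 (Tmem223) to 28.9 points (Rem1), and all were called. Calhm2 was at 20.2 points on its 9 CpGs with 5 reads in all 4 libraries, and Slc46a2 at 22.8 points with at least 10 reads per CpG.

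Among promoters with at least 10 CpGs, the 5 largest losses were smaller than the gains, and in the other pair 0 of the 5 was called. Gdf3, a TGF-beta family ligand of early embryos, was at 62.4% in KO (718 reads) and 79.6% in WT (416 reads), lower by 17.2 points (interval -22.3 to -11.8, adjusted p = 5.6e-08, Fisher's exact test). The zinc finger genes Zfp972 (64.5% and 81.8%) and Zfp951 (44.0% and 59.5%), 4930486L24Rik (73.0% and 87.7%) and Gm37013 (73.3% and 89.6%) made up the other 4. At 30 ppm their differences were -7.36, -8.62, 2.10, -1.34 and -4.82 points in the order given. With the robust SD, Zfp972, Zfp951 and 4930486L24Rik lost the call. With at least 10 reads per CpG, Zfp972 missed the threshold of Fisher's exact test (adjusted p = 0.0504). With 2.5 kb on each side Zfp972 (-9.67 points) and 4930486L24Rik (-9.12 points) lost the call, the latter also with 500 bp (-9.44 points).

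**Figure D4:**
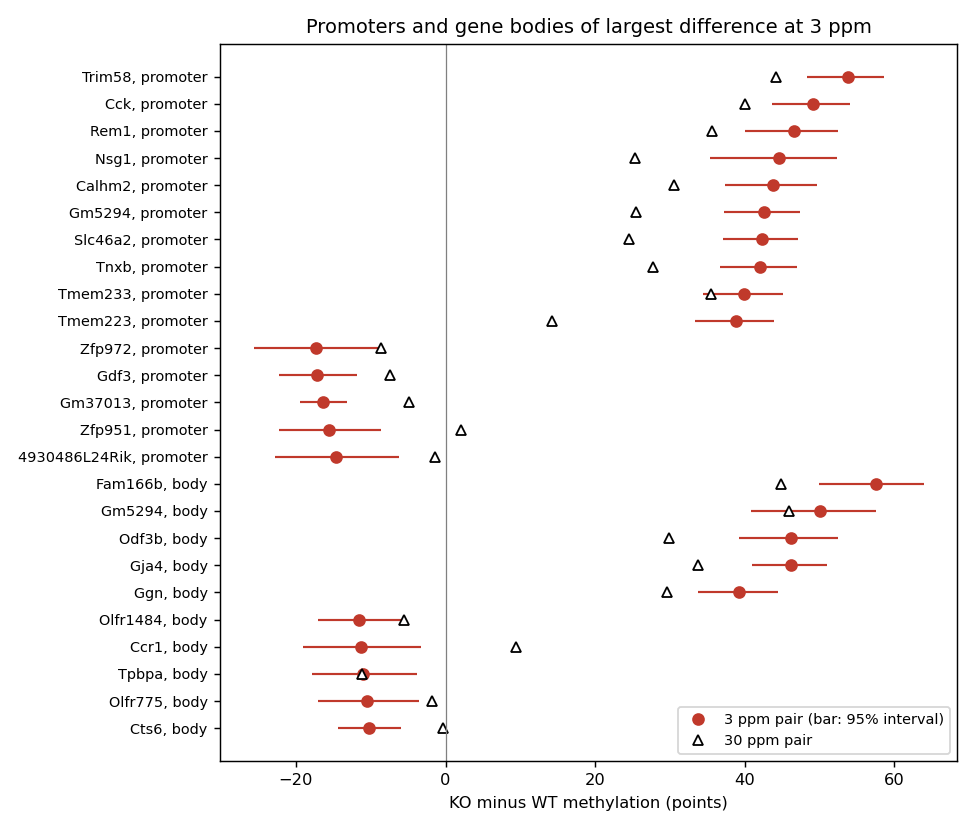
KO minus WT methylation (points) of the 15 promoters and 10 gene bodies with the largest gain or loss under 3 ppm FA (circles, bars are 95% intervals of counting error), with the difference of the same gene in the 30 ppm pair (triangles, CpGs with 5 reads in that pair). All 15 gains are above 0 in the 30 ppm pair, and of the 10 losses only the Tpbpa body was called lower there.

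The 30 ppm pair shares no library with the 3 ppm pair and used its own CpGs. Of the 3970 higher promoters 3949 could be tested there. KO exceeded WT in 92.8% of them, with a median of 11.6 points, while over all promoters 70.6% were above 0 with a median of 2.39 points. Of the 3949, 46.4% were called higher, a share given without that of all promoters called there. Of 151 lower promoters 53.0% were above 0 at 30 ppm, and 3 were called lower. The pairs were set against each other by a Wald test on their log odds ratios, adjusted over all promoters, and 154 of the higher promoters (3.90%) and 15 of the lower ones (9.93%) differed between them, against 607 of all promoters (1.25%). The called sets were chosen by the 3 ppm difference, which enters this test too, so nothing is read from their excess over all promoters.

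Gene bodies moved the same way with smaller steps. Of 28930 bodies tested, 2688 were higher (9.29%) and 160 lower (0.553%), and of the 19054 protein-coding ones 1898 were higher (9.96%) and 81 lower (0.425%), with a median difference of 0.829 points. With the robust SD, 2.15 for bodies, 781 were higher and 1 lower, and with CpGs at least 500 bp apart 253 and 20. Genes up to 5 kb had a higher body in 21.5% of 2260 and genes over 100 kb in 0.802% of 2368, the reverse of the promoters. The share was 58.7% for bodies at 20% to 50% in the WT library of 30 ppm and 2.47% for bodies at 80% to 100%, where the minimum of 5 points again limits the gain. Of 2583 genes with a higher promoter and a tested body 19.9% had a higher body too, against 8.49% of 16237 genes whose promoter was not called. At 30 ppm 94.6% of the 2618 higher bodies that could be tested were above 0, with a median of 6.27 points, against 83.4% and 1.85 points over all bodies.

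The bodies with the largest gain were short. Fam166b (chromosome 4, 43427019 to 43428133 with the start left out) was at 75.5% in KO (343 reads) and 17.9% in WT (195 reads), a difference of 57.6 points (49.9 to 63.9, adjusted p = 2.8e-37, Fisher's exact test), and 67.8% and 23.0% at 30 ppm. Gja4, the gap junction protein connexin 37 of blood vessels, was at 88.8% and 42.7% (30 ppm pair 81.0% and 47.3%). Odf3b was at 57.9% and 11.7%, Gm5294 was higher by 50.0 points, and Ggn, a testis protein gene, was at 75.0% and 35.8%. The 5 largest losses were Olfr1484, Olfr775 (both odorant receptors), Ccr1 (a chemokine receptor), Tpbpa (a trophoblast marker) and Cts6 (a cathepsin of the placental cluster), between -10.2 and -11.6 points, and with the robust SD 0 of the 5 was called. Ccr1, Tpbpa and Olfr775 also lost the call with thinned reads, at -8.37, -5.07 and -8.29 points, and Ccr1 and Olfr775 with at least 10 reads per CpG.

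Gene lists were set beside these backgrounds. They describe the members and were not tested as lists, and a gene may be in several. Counts called at 30 ppm are given without the share of all promoters or bodies called there. That background is shifted, so nothing is read from them. The median over all promoters tested was 2.39 points at 30 ppm and 1.28 at 3 ppm, and over all bodies 1.85 and 0.731. The counts move with the processing: with CpGs at least 500 bp apart 1 axon guidance promoter was called and 0 in each other list, and the bodies called higher were 0 of the proneural, 3 of the homeobox, 4 of the Wnt, 1 of the Sox and 3 of the axon guidance genes. With the robust SD the promoters of Smug1, Izumo1r, Slc19a1, Amt, Gnmt, Hhat, Scube2, Dhh, Gbx1, Gabbr1, Kcnj15, Cacnb4, Erg and Slc10a4 and the bodies of Nog, Hoxd1, Sox18 and Zrsr1 lost the call. Genes of nerve signalling were above the 13.2% of all protein-coding promoters. The share called also varies with the level and CpG content of a promoter, and shares matched for these were not taken. For bodies it varies with their level and with gene length, and matched shares were not taken either. Every body begins 1 kb inside the start and can hold promoter flank, whose part in any list was not tested. Median WT levels were 20.7% in neurotransmitter transporters, 19.5% in potassium channels, 22.4% in calcium and sodium channels and 12.9% in glutamate and GABA receptors. Of 32 promoters of neurotransmitter transporters 13 were higher (40.6%), with a median difference of 6.81 points over the list. Slc6a7, a proline transporter, was at 53.4% in KO and 30.4% in WT. Slc6a3, which takes up dopamine, was at 43.1% and 22.3%. Slc6a4, which takes up serotonin, was at 20.6% and 8.34%. Slc18a2, the vesicular monoamine transporter, was at 23.6% and 11.3%. At 30 ppm 12 of the 13 were above 0 and 7 were called. The count of 13 was 7 with CpGs weighted equally and 8 with the robust SD.

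Slc32a1, the vesicular GABA transporter, gained methylation outside its promoter. The promoter was at 5.42% in KO and 1.34% in WT, a difference of 4.08 points under the 10 points required. With 2.5 kb on each side it was called. The body (chromosome 2, 158611768 to 158615748) was at 27.4% in KO (1897 reads) and 7.55% in WT (1165 reads), higher by 19.9 points (17.3 to 22.3, adjusted p = 1.9e-42, Fisher's exact test). At 30 ppm it was at 28.2% and 7.04%. Slc18a3, the vesicular acetylcholine transporter, was likewise higher in its body, at 21.9% and 4.93%. Slc10a4, a vesicle protein of cholinergic and monoaminergic neurons, was higher at its promoter, at 55.6% and 42.4% (adjusted p = 5.4e-05, Fisher's exact test) and 72.8% and 59.2% at 30 ppm, but not with at least 10 reads per CpG (9.21 points) or 2.5 kb on each side (9.55 points).

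Of 91 potassium channel promoters 30 were higher (33.0%), of 39 calcium and sodium channel promoters 13 (33.3%) and of 43 glutamate and GABA receptor promoters 14 (32.6%), with medians of 5.53, 6.52 and 6.61 points. With the robust SD the counts were 17, 5 and 4, where 1830 of 49084 promoters of all genes were higher. The receptors had 9 with CpGs weighted equally or the median subtracted. Among the potassium channels Kcns1, a silent subunit that modifies Kv2 channels, was at 45.9% in KO and 13.3% in WT. Kcna5, the Kv1.5 channel, was at 44.2% and 12.5% (30 ppm pair 47.1% and 15.4%). Kcnj15, an inward rectifier, was at 62.3% and 36.1%. Kcna5 was not called with 500 bp on each side of the start, at 3.87 points, and Kcns1 was at 16.7 points there.

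Cacna2d2, an auxiliary subunit of calcium channels, was at 57.8% in KO (166 reads) and 22.4% in WT (170 reads), and at 57.7% and 44.4% at 30 ppm. Cacnb4 was at 57.1% and 34.6%, and Cacna1s, the channel of skeletal muscle, at 80.4% and 59.1%. Both lost the call with 2.5 kb on each side, at 7.22 and 8.21 points. Of the 13 higher calcium and sodium channels all were above 0 at 30 ppm and 3 were called. Gabrb2, a subunit of the GABA-A receptor, was at 59.3% and 33.0%. Gabbr1, a subunit of the GABA-B receptor, was at 39.1% and 21.7% and lost its call with thinned reads, with at least 10 reads per CpG, on shared CpGs and with 500 bp on each side (6.67 points). Of the 14 receptors 13 could be tested at 30 ppm, with 11 above 0 and 4 called. The bodies of the receptor list were near the background (6 of 43) and its median body difference was 0.0647 points.

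Over the 319 solute carriers, the wider superfamily, 70 promoters were higher (21.9%) and 0 lower. Slc29a1, an equilibrative nucleoside transporter, was at 64.4% in KO and 37.8% in WT (30 ppm pair 69.5% and 42.2%). Slc25a24, a mitochondrial carrier, was at 59.6% and 31.5%, but at 46.4% and 43.6% at 30 ppm, and with CpGs weighted equally its difference was 12.9 points. It lost the call with 500 bp on each side, at 8.24 points. Of the 70, 64 were above 0 at 30 ppm and 31 were called. The count was 47 with CpGs weighted equally and 38 with the robust SD.

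**Figure D5:**
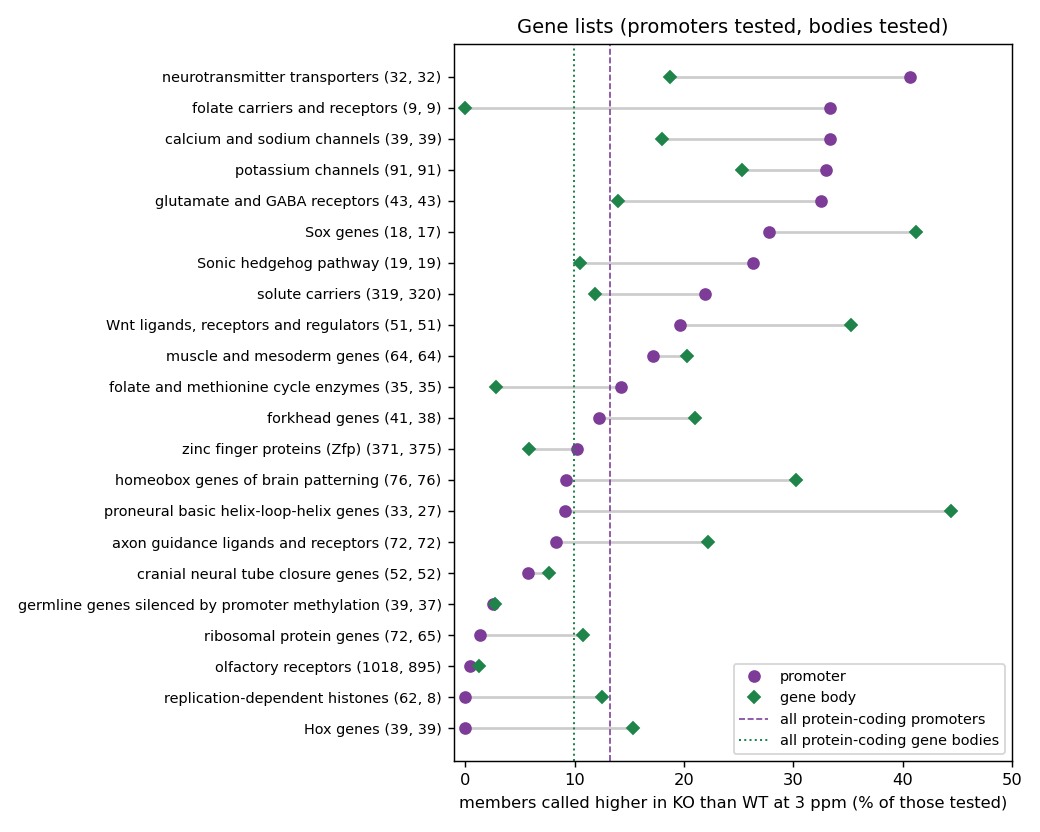
Share of members called higher in KO than WT under 3 ppm FA (% of members tested) for promoters (circles) and gene bodies (diamonds) of each gene list, with the numbers tested in parentheses and the shares of all protein-coding promoters (dashed line, 13.2%) and bodies (dotted line, 9.96%). Neurotransmitter transporters have the highest share among promoters and proneural genes among bodies.

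Folate genes were looked at because the diets differ in FA. Of 9 folate carriers and receptors 3 promoters were higher (33.3%, background 13.2%) and 0 bodies (background 9.96%). The promoter count was 2 without chromosome 10, which carries Tet1. It was also 2 with thinned reads, with CpGs weighted equally or with no minimum, and 1 with the robust SD. Abcc3, an efflux pump, was at 69.8% in KO and 47.6% in WT (30 ppm pair 77.6% and 54.2%). Its difference was 12.1 points, still called, with 2.5 kb on each side. Izumo1r, the egg receptor of the folate receptor family, was at 72.0% and 56.4%, and at 4.59 points, without a call, with 500 bp on each side. Slc19a1, the reduced folate carrier, was at 33.5% and 21.8% (adjusted p = 0.0018, Fisher's exact test), but with each CpG weighted equally the difference was 2.60 points, with thinned reads 3.12 points, with no minimum 8.76 points and with 2.5 kb on each side 6.52 points, and the call was lost in each. Slc46a1, the proton-coupled folate transporter, was at 21.9% (960 reads) and 23.2% (867 reads), a difference of -1.31 points (-5.16 to 2.52, adjusted p = 0.79, Fisher's exact test). At 30 ppm it was at 51.7% and 34.0%. On the 28 CpGs with 5 reads in all 4 libraries the Slc46a1 levels were 41.7% and 40.5% at 3 ppm, and 49.5% and 32.6% at 30 ppm. Folr1, the folate receptor alpha, was at 85.9% and 92.4% and was not called.

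Of 35 enzymes of the folate and methionine cycles 5 promoters were higher (14.3%, background 13.2%). The count was 10 with at least 10 reads per CpG and on the CpGs shared by all 4 libraries, and 1 with the robust SD. Over all promoters 10 reads per CpG moved the count from 3970 to 4697. Gcsh (30.2% in KO and 14.0% in WT) and Amt (64.2% and 49.4%) belong to the glycine cleavage system, which feeds the folate cycle. Gnmt, which uses up S-adenosylmethionine, was at 63.1% and 49.3%, and at 57.4% and 57.5% at 30 ppm. Amt and Gnmt lost the call with 2.5 kb on each side, at 7.52 and 4.73 points. Mat1a and Shmt1 were the others. The promoter of Mtr, methionine synthase, was at 6.73% and 4.57% and was not called. In 1 of 35 bodies (2.86%, against 9.96% of all protein-coding bodies), that of Ftcd, methylation was higher. This body count was 0 without chromosome 10, which carries Tet1. It was also 0 with at least 10 reads per CpG, on shared CpGs and with the robust SD.

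Of 21 writers, readers and erasers of DNA methylation 3 promoters were higher (14.3%). The count was 1 with thinned reads or the robust SD and 2 with CpGs weighted equally, with no minimum or with the median subtracted. Smug1, a glycosylase that removes uracil bases, was at 54.9% and 34.9%, and 63.6% and 38.6% at 30 ppm. Apobec1, a cytidine deaminase, was at 53.8% and 31.3%, but at 43.1% and 44.1% at 30 ppm, and with CpGs weighted equally the difference was 10.4 points. With thinned reads Apobec1 was under 10 points and lost the call, as did Smug1 with 2.5 kb on each side, at 7.25 points. Cxxc5, a protein that binds unmethylated CpGs, was higher by 10.6 points. The promoters of Tet2 (7.66% and 4.03%), Tet3 (86.2% and 79.8%), Dnmt1 (92.7% and 88.2%), Dnmt3a (76.6% and 74.7%) and Dnmt3b (19.6% and 20.9%) were not called. These windows surround the outermost annotated start, and which start is in use in this tissue was not measured.

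Of 52 genes needed to close the cranial neural tube 3 promoters (5.77%) and 4 bodies (7.69%) were higher. The promoter count was 7 with at least 10 reads per CpG and on the CpGs with 5 reads in all 4 libraries, and 1 with the robust SD, and at 30 ppm 7 of 52 were called. The body count was 7 with at least 10 reads per CpG and 1 with the robust SD. Vangl2, a core protein of planar cell polarity, was at 43.1% in KO (656 reads) and 25.4% in WT (425 reads), and at 46.4% and 30.9% at 30 ppm. It turned to -15.5 points with CpGs at least 500 bp apart, which left 4 CpGs. Marcksl1, an actin-linked protein kinase C substrate, was at 37.8% and 18.4% on 11 CpGs, and 29.3% and 26.9% at 30 ppm. It lost the call with at least 10 reads per CpG, with no minimum (7.87 points), with 2.5 kb on each side (8.87 points), with spaced CpGs, with the robust SD and on the CpGs shared by all 4 libraries (8.93 points). Spint2, a protease inhibitor, was the third. The body of Nog, the BMP antagonist noggin, was at 44.7% and 26.2%.

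Wnt and Sonic hedgehog genes, which pattern the neural tube, were called at promoters and in bodies in different numbers, at the different minimum gaps of each. Of 51 Wnt ligands, receptors and regulators 10 promoters (19.6%) and 18 bodies (35.3%) were higher, and 18 of the 18 bodies were above 0 at 30 ppm. With the robust SD the counts were 8 and 9. The body of Dkk1, a secreted Wnt inhibitor, was at 72.1% in KO (712 reads) and 44.2% in WT (703 reads), and at 69.1% and 39.1% at 30 ppm. The promoter of the ligand Wnt2 was at 29.0% and 6.70% (30 ppm pair 32.1% and 7.73%), that of Wnt1, made at the midbrain border, at 23.9% and 9.47%, and that of Rspo4, an R-spondin that enhances Wnt signals, at 68.3% and 47.2%. On the 14 shared CpGs Rspo4 was at 80.8% and 69.3%. Of 19 Sonic hedgehog pathway promoters 5 were higher (26.3%), and 2 of 19 bodies (10.5%). The promoter count was 10 with at least 10 reads per CpG, 1 with CpGs weighted equally and 0 with the robust SD. The body count was 4, 3 and 0 in these settings, and 1 without chromosome 10. At 30 ppm 7 of 19 promoters and 7 of 19 bodies were called higher, with no share over all genes to set beside them. Hhat, which attaches palmitate to the ligand, was at 36.2% and 20.5%, Dhh, a ligand, at 26.2% and 13.0%, and Smo, the signal transducer, at 30.6% and 18.8%. Shh itself was at 6.58% and 3.23% and was not called. Hhat, Scube2 and Dhh lost the call with CpGs weighted equally. Hhat and Dhh also lost it with 2.5 kb on each side (2.17 and 4.55 points), Scube2 with 500 bp (5.07 points) and Dhh with no minimum (9.58 points).

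Transcription factors of brain development were described by family. Of 33 promoters of proneural basic helix-loop-helix genes 3 were higher, at a median difference of 4.32 points over the list. Of 27 bodies 12 were higher (44.4%, against 9.96% of all protein-coding bodies), at a median of 4.55 points. The minimum gaps differ, 10 points for promoters and 5 for bodies. These bodies had a median WT level of 7.75% and begin 1 kb inside the start, so they can hold promoter flank. Its part in the gain was not tested. At 30 ppm 12 of the 12 were above 0, as were 94.6% of all higher bodies tested there. With the robust SD 1 promoter and 1 body were called, and with at least 10 reads per CpG 6 and 15. The body of Nhlh1, a neuronal differentiation factor, was at 63.1% and 45.8%, and that of Olig3, a dorsal hindbrain factor, at 17.9% and 4.41%. Of 76 homeobox genes of brain patterning 7 promoters (9.21%) and 23 bodies (30.3%) were higher, and 2 and 15 with the robust SD. Lhx3, a LIM factor of motor neurons and the pituitary, had a body at 22.5% in KO (2379 reads) and 5.42% in WT (1900 reads), and 26.3% and 8.10% at 30 ppm, and its gap was 30.4 points on shared CpGs. The promoter of Gbx1 was at 39.7% and 16.0% on 8 CpGs, and 29.3% and 27.6% at 30 ppm.

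Of 18 Sox promoters 5 were higher and of 17 bodies 7 (41.2%), and 3 and 2 with the robust SD. Sox10, a neural crest and glial factor, was at 79.6% and 57.0% at its promoter, which lost the call with at least 10 reads per CpG (2.89 points on 3 CpGs), with 500 bp on each side (13.9 points on 10 CpGs) and on the CpGs with 5 reads in all 4 libraries (7.99 points on 8 CpGs). The body of Sox18, a vascular factor, was at 27.3% and 13.3%. Of 41 forkhead promoters 5 were higher (12.2%) and of 38 bodies 8 (21.1%), and 3 and 3 with the robust SD. The Foxi2 body was at 76.5% and 43.6%, and 75.1% and 42.5% at 30 ppm. Foxj1, the regulator of motile cilia, was at 25.6% and 9.81% at its promoter, but at 24.4% and 25.2% at 30 ppm. Its difference was under 10 points with 500 bp (7.39) or 2.5 kb (8.80) on each side. It was also under 10 with thinned reads (9.16) and with CpGs weighted equally (9.14), and the call was lost in each of these settings. With spaced CpGs the Foxj1 difference was 33.3 points on 4 CpGs, and the call was lost on the exact test. Of 39 Hox promoters 0 were higher, with a median WT level of 2.80%, and 6 of 39 Hox bodies were, while all 39 bodies had a difference above 0 (median 2.85 points). Hoxd1 was at 77.9% and 58.3% in its body. The robust SD left 0 Hox bodies called, while 9 were called with at least 10 reads per CpG and 11 of 39 at 30 ppm.

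Axon guidance genes had 6 of 72 promoters (8.33%) and 16 of 72 bodies (22.2%) higher, at the different minimum gaps of each. Their median differences were 3.69 points for promoters and 1.75 for bodies, against 2.82 and 0.829 over all protein-coding genes. With at least 10 reads per CpG the counts were 16 promoters and 14 bodies. The promoter count was 10 on the CpGs shared by all 4 libraries, 3 with CpGs weighted equally and 1 with the robust SD. Sema4a, a semaphorin, was at 84.0% and 56.5% at its promoter, and the body of Ntn3, a netrin, at 39.2% and 23.6%. Muscle and mesoderm genes had 11 of 64 promoters (17.2%) and 13 of 64 bodies (20.3%) higher, and 6 and 8 with the robust SD. The Acta1 promoter, of skeletal muscle actin, was at 69.3% in KO (241 reads) and 32.6% in WT (144 reads), and 63.4% and 30.8% at 30 ppm. The body of T, the mesoderm factor brachyury, was at 76.9% and 53.1%.

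Several other lists were described. Of 371 Zfp zinc finger promoters 38 were higher (10.2%) and 5 lower (1.35%, against 0.213% of all protein-coding promoters), and of 375 bodies 22 were higher (5.87%). The higher promoters were 58 with at least 10 reads per CpG, 19 with CpGs weighted equally and 12 with the robust SD. The higher bodies were 12 with at least 10 reads per CpG, 11 on shared CpGs and 8 with the robust SD. Zfp467 stood out in its body, at 84.1% in KO (3813 reads) and 59.9% in WT (2568 reads), and 84.2% and 73.6% at 30 ppm. On shared CpGs the gap was 14.2 points. Of 72 ribosomal protein promoters 1 was higher, Rpsa, which lost the call with the overall median subtracted, with thinned reads and with either other window, and was at 2.27 points with CpGs weighted equally, and of 62 promoters of replication-dependent histones 0. Germline genes that promoter methylation silences had 1 of 39 higher, Tdrd6 (63.5% and 39.0%), with a median WT level of 85.8%. Of 21 promoters with a maternal germline imprint, methylated on the maternal copy only, 1 was higher, and 4 with at least 10 reads per CpG. It was Nnat, at 61.0% in KO (1584 reads) and 48.3% in WT (1247 reads), but at 55.8% and 61.0% at 30 ppm. The median over these promoters was 61.0% in KO and 54.4% in WT, and 90.5% of them had a difference above 0, as had 76.3% of all protein-coding promoters.

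Odorant receptor genes were the list in which losses outnumbered gains. Of 1018 Olfr promoters 4 were higher and 10 lower (0.982%, against 0.213% of all protein-coding promoters), and of 895 bodies 11 were higher and 36 lower (4.02%, against 0.425%). The median differences were -1.16 and -1.10 points. The promoters were at a median of 82.9% in KO and 84.1% in WT, levels at which the minimum gap limits gains more than losses. The list is itself part of these backgrounds, and of all CpG-poor protein-coding promoters 0.464% were lower. Olfr1459 was at 69.9% and 90.1% on 4 CpGs and Olfr397 at 49.7% and 68.8% on 7 CpGs. Their differences at 30 ppm were -0.162 and -1.32 points. Both lost the call with the robust SD, with spaced CpGs and with 2.5 kb on each side, at -5.22 and -5.70 points. Over all genes the robust SD left 10 promoters and 1 body lower, and at 30 ppm the medians of the list were 0.495 points for promoters and 0.167 for bodies.

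Genes were also grouped by the letters of their symbol, without a list, into 271 families of at least 10 promoters. The share over all protein-coding promoters was 13.2%. Families were ranked on these same calls, so the leading shares are no test, and the alternatives were not run on them. The Cxcl chemokines, which attract immune cells, had the highest share, 7 of 12 promoters higher (58.3%, median 14.3 points). At 30 ppm these 7 differed by 0.816 (Cxcl3) to 20.7 points (Cxcl10). Cxcl2 was at 60.6% in KO and 31.6% in WT and Cxcl16 at 47.5% and 21.1%, while Cxcl12, used in the developing brain, was at 3.86% and 1.62% and was not called. The synaptotagmins (Syt), sensors of vesicle release, followed with 8 of 17 (47.1%). Syt2 was at 32.8% and 5.39%, and Syt1 at 2.29% and 1.18%, not called. The serotonin receptors (Htr) and tubulin ligases (Ttll) had 6 of 13 each (46.2%). Htr7 was at 41.4% and 18.5%, Htr2a at 33.8% and 13.2%, and Htr1a at 6.68% and 3.68%, not called. Symbols starting with Hs, mostly heparan sulfate sulfotransferases, had 5 of 11 (45.5%), the guanine nucleotide exchange factors Arhgef 10 of 24 (41.7%) and the mucin-type glycosyltransferases Galnt 7 of 17 (41.2%), with Galnt6 at 71.8% and 37.3%. At 30 ppm the 7 Galnt promoters called ran from -3.07 (Galnt11) to 39.9 points (Galnt18). A further 6 families tied at 40.0%. Among bodies, symbols starting with Irf, mostly interferon regulatory factors (7 of 12), and the Wnt ligands (9 of 19) led, against 9.96% of all protein-coding bodies.

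Of the markers of other cell types, some promoters were called in each list except surface epithelium. Twist2 (25.7% in KO and 5.05% in WT) and Col1a1 (15.6% and 1.87%) were the 2 mesenchyme promoters called higher, Epor (42.8% and 23.9%) the blood promoter and Erg (37.3% and 24.5%) the endothelial one. Col1a1 was at 1.92 points on the CpGs shared by all 4 libraries and Twist2 at 4.47 points with 500 bp on each side, and both then lost the call. Over all lists the endothelium promoters had a median of 24.1% in KO and 16.1% in WT, the mesenchyme ones 3.90% and 1.95%, the blood ones 45.5% and 54.0%, and the surface epithelium ones 28.3% and 29.0%. The median difference within genes was 0.638 points for blood and 3.39 points for surface epithelium, where 87.5% of the promoters had a difference above 0. Among bodies 2 of 10 neural markers, Nes and Lhx2, were higher, and 0 with CpGs weighted equally (3.04 and 4.47 points). The count was 4 with at least 10 reads per CpG, and 6 of 10 were called at 30 ppm. Nes also lost the call with thinned reads, with spaced CpGs, with the robust SD and on shared CpGs. In each of the blood, endothelium, mesenchyme and epithelium lists 1 body was higher, those of Epor, Cldn5, Col1a1 and Krt5. The bodies tested were 7, 10, 10 and 8, and 9.96% of all protein-coding bodies were higher. Cldn5 lost the call with thinned reads and the robust SD, and Krt5 with CpGs weighted equally (4.99 points) and the robust SD. The blood count was 0 with CpGs weighted equally, no minimum, thinned reads or the robust SD. Whether a different mix of cells takes part in the results was not tested.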

How the data were processed

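DNA methylation was measured by WGBS in 4 brains, and the 3 ppm pair was analysed. Per the study's methods and the submitters' processing notes, the authors trimmed reads with Trim Galore 0.6.10, aligned them with Bismark 0.23.1 to mm10 (GRCm38.p6), removed duplicates and merged both strands of a CpG. At every CpG the deposited tables hold the methylated fraction of its reads. They also give the count of reads covering it, which the authors did not normalise. Fraction times count was rounded to methylated reads (at most 4.37e-11 from a whole number). Positions count from 0, and after a shift by 1 base all 18974562 autosomal CpGs lay on a CG of GRCm38. Reads of the lambda spike-in were not used here, nor were the authors' region lists, which hold their own comparisons.

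Genes came from GENCODE vM21. Reads per window were compared by Fisher's exact test in Python 3.11.15 (numpy 2.4.6, scipy 1.17.1, pandas 2.3.3, numba 0.67.0, matplotlib 3.10.9). Differences of levels carry 95% intervals of counting error. On simulated reads 173 of 200 promoters changed by 20 points were recovered (86.5%), and 175 of 200 bodies changed by 10 points (87.5%). In all, 49084 promoters and 28930 bodies were simulated, and 1 and 3 unchanged ones were called. The simulated reads were independent, which the real ones are not, so these numbers give no rate of false calls for the data. Named genes are the protein-coding calls with at least 10 CpGs and 100 reads per library of largest change (10 promoters up, 5 down, 5 bodies up, 5 down), up to 3 called members per list, and Tet1, Slc46a1, Slc10a4 and Slc32a1. Some named genes are not reported here. Other list and family members given were chosen after their values were seen. The comparison, the lists and the rules were chosen with earlier results of these data known. A named value is given again under another setting where it lost its call or moved by over 1.5 times, in most cases. Shared CpGs are those with 5 reads in all 4 libraries. Alternatives changed the minimum of reads, the window, the minimum of CpGs, the spacing, the depth, the weighting, the centring, the variance and the genes tested.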

Additional observations from a re-analysis of the deposited data

Results flagged for a closer look

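These named genes had a KO minus WT difference that was not the same in the 3 ppm and 30 ppm pairs, by the Wald test on log odds ratios at an adjusted threshold of 0.05, over all promoters or all bodies. That test rests on a normal approximation, so only the sizes are given. Most of these genes were chosen for a large 3 ppm difference, which enters the test too. Nothing is therefore read from a smaller gap at 30 ppm. With 1 library in each group the test compares libraries, and counting error is its only error. A second pair of values is given for most of them on the CpGs with 5 reads in all 4 libraries, since each pair otherwise used its own CpGs. The Slc46a2 promoter differed by 42.2 points at 3 ppm and 24.6 at 30 ppm, and on shared CpGs 31.3 and 24.6. The Tmem223 promoter differed by 38.8 points at 3 ppm and 14.2 at 30 ppm, and on shared CpGs 29.5 and 14.2. The Gm37013 promoter differed by -16.3 points at 3 ppm and -4.82 at 30 ppm, and on shared CpGs -16.4 and -4.82. The Gja4 body differed by 46.1 points at 3 ppm and 33.8 at 30 ppm, and on shared CpGs 45.7 and 32.8. The Ccr1 body differed by -11.3 points at 3 ppm and 9.37 at 30 ppm. The Cts6 body differed by -10.2 points at 3 ppm and -0.298 at 30 ppm, and on shared CpGs -10.5 and -0.298. The Apobec1 promoter differed by 22.5 points at 3 ppm and -0.984 at 30 ppm, and on shared CpGs 22.3 and -0.935. The Foxj1 promoter differed by 15.8 points at 3 ppm and -0.763 at 30 ppm, and on shared CpGs 19.2 and -0.763. The Slc25a24 promoter differed by 28.1 points at 3 ppm and 2.79 at 30 ppm, and on shared CpGs 27.3 and 2.79. The Nnat promoter differed by 12.8 points at 3 ppm and -5.21 at 30 ppm, and on shared CpGs 16.3 and -4.20. The Zrsr1 body differed by 12.4 points at 3 ppm and -5.54 at 30 ppm, and on shared CpGs 13.6 and -5.54. The Zfp467 body differed by 24.2 points at 3 ppm and 10.6 at 30 ppm, and on shared CpGs 14.2 and 9.92. The Erg promoter differed by 12.8 points at 3 ppm and 48.0 at 30 ppm, and on shared CpGs 20.3 and 47.9. The Slc46a1 promoter differed by -1.31 points at 3 ppm and 17.8 at 30 ppm, and on shared CpGs 1.16 and 16.9.

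On the X chromosome, which took no part in the report and is present once in these male embryos, 37 of 821 protein-coding promoters were higher in KO (4.51%) and 0 lower, against 13.2% and 0.213% on the autosomes. Of 730 bodies 21 were higher (2.88%) and 2 lower (0.274%), against 9.96% and 0.425%. There were no replicate control samples to set a level for these counts.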

How the results depend on the processing

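Each choice was changed alone. No replicate could be left out, since each group has 1 library. No paired analysis was possible because each group holds 1 sample. With CpGs at least 500 bp apart the higher and lower counts moved to 32 and 2 promoters and 253 and 20 bodies, and with the robust SD to 1830 and 10 promoters and 781 and 1 bodies. Reads thinned to the lower count gave 2965 and 81 promoters and 2093 and 88 bodies, 2.5 kb windows 3053 and 68 promoters, at least 10 CpGs 3953 and 83 promoters, and at least 30 CpGs 2296 and 55 bodies. With p adjusted over protein-coding genes only, 2727 and 51 promoters and 1912 and 93 bodies were called, against 2662 and 43, and 1898 and 81. Minimum differences of 5 and 20 points gave 7323 and 464, and 709 and 12 promoters. For bodies, 2 and 10 points gave 5866 and 566, and 834 and 17, and the whole gene gave 4231 and 345.

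Median differences of CpG-rich promoters were 4.92 points with 10 reads per CpG, 2.65 with no minimum, 1.04 with 500 bp and 4.11 with 2.5 kb. Intermediate promoters gave 5.17, 4.20, 3.47 and 3.94, and poor ones 1.70 with 500 bp and 0.661 with 2.5 kb. Of the named calls, 60 were lost with spaced CpGs, and Vangl2 turned to -15.5 points. Only 10 named windows, called or not, were unchanged there, and those left with too few CpGs were not tested. Losses were 46 with the robust SD, 19 with 2.5 kb, 16 with thinned reads and 14 with 500 bp. They were 12 with CpGs weighted equally, 10 with 10 reads, 3 with no minimum and 1 with the median subtracted. Without the CpGs at 80% or more in both libraries of one genotype and 5% or less in both of the other, the count lost was 0. Leaving out chromosome 10 removed its genes from the test, so the named calls there were not checked. For the named calls on other chromosomes only the adjustment of p could change, and the count lost was 0. A part of the flanks of the targeted allele in the calls was therefore not tested by this setting. CpGs with 5 reads in all 4 libraries, an alternative chosen after seeing the data, lost 9. The cause was not tested, except that spaced CpGs leave few per window.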
